A study of Mus musculus with 12 samples.

Results

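The phase II conjugating transferases of mouse liver were described as 3 enzyme families: glutathione S-transferases (GSTs), UDP-glucuronosyltransferases (UGTs) and cytosolic sulfotransferases (SULTs). Genes were taken by symbol: the Gst classes alpha, kappa, mu, omega, pi, theta and zeta, the microsomal Mgst genes, the Ugt1a, Ugt2a, Ugt2b and Ugt3a genes, and the numbered Sult genes. Of 73 such genes in a table of 55359 genes, 53 held 10 or more read counts over the 12 libraries, namely 24 GSTs, 18 UGTs and 11 SULTs. The member with the fewest counts had 32, and the gene just under the minimum, Sult3a1, had 8.

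These enzymes attach glutathione, glucuronic acid or sulfate to drugs, pollutants, hormones, bilirubin and bile acids, which makes the products more soluble and lets transporters carry them into bile or blood. Hepatocytes are their main site in the body. Many of the genes are known targets of xenobiotic and stress sensors (CAR, PXR, AHR and NRF2), several differ between male and female mouse liver, and most sit in clusters of close copies that arose by duplication.

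Livers came from 12 male C57BL/6NTac mice, 4 in each of 3 groups, and every mouse was injected each week for 6 weeks with mRNA in lipid nanoparticles. In the NM-FGF19 group a high-fat diet was combined with mRNA for NM-FGF19, an engineered form of FGF19, the gut hormone that restrains bile acid synthesis through FGFR4 and beta-klotho in hepatocytes. HFD control mice had the same diet with a control mRNA, and their data columns carry the name mOX40L. Lean mice had normal chow with a control mRNA. Feeding lasted 28 weeks in the protocol, while 21 weeks of diet before treatment and an age of 24 weeks are given elsewhere in the labels, and the organ was collected 24 hours after the final injection. Nothing in the labels ties a mouse of one group to a mouse of another, and p-values measure the spread between these mice.

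Reads were counted per gene, at 26809039 to 30014092 counts per library in NM-FGF19 livers, 32284438 to 33257260 in HFD control livers and 23743415 to 30349156 in lean livers. Levels are given in CPM, which are counts scaled to a common library total with TMM factors. A floor of 3 counts stood at 0.0792 to 0.153 CPM, which covers counting error only and takes each count as a separate read pair. Hepatocyte markers summed to 119600 to 165000 CPM in NM-FGF19 livers, 74530 to 97860 CPM in HFD control livers and 113700 to 189300 CPM in lean livers. Stellate cell and fibroblast markers summed to 328 to 1030 CPM in NM-FGF19 livers, 472 to 1259 CPM in HFD control livers and 205 to 272 CPM in lean livers. In bulk tissue, fewer cells of a type and less RNA per cell cannot be told apart, and the part of these marker levels in the results below was not tested. Among the 46 members tested, lean 3 held the lowest level of its group in 35 and HFD control 3 the highest of its group in 18. Some results are therefore also given by library or without these libraries.

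The 3 families together held 0.937% of all counts in NM-FGF19 livers, 1.22% in HFD control livers and 0.966% in lean livers. All 53 members summed to 9271 ± 1228 CPM in NM-FGF19 livers, 10930 ± 574.5 CPM in HFD control livers and 10690 ± 1967 CPM in lean livers (SD, n = 4 each). The GSTs summed to 5958 ± 765.8 CPM in NM-FGF19 livers, 7552 ± 1225 CPM in HFD control livers and 7340 ± 1322 CPM in lean livers. HFD control 3 held 9197 CPM of GSTs, against 6231 to 7426 CPM in the rest of its group. Lean 3 held 5629 CPM, against 7153 to 8779 CPM in the rest of its group. For all 53 members these libraries held 11760 and 7963 CPM. Without both libraries the order of the HFD control and lean means reverses, for the GSTs and for all members. Both were picked by these same levels, as the highest of HFD control and the lowest of lean. Leaving them out can move the means only this way, so the reversal is no evidence on the order. UGTs summed to 2280 ± 501.3 CPM in NM-FGF19 livers, 2518 ± 389.2 CPM in HFD control livers and 2318 ± 517.3 CPM in lean livers. The ranges of the 4 libraries overlapped between all pairs of groups for the UGTs, and the sums were not tested, since the members were chosen with earlier results of these data known. SULTs summed to 1033 ± 226.4 CPM in NM-FGF19 livers, 864.5 ± 330.5 CPM in HFD control livers and 1030 ± 251.4 CPM in lean livers. HFD control 3 held 429.2 CPM of SULTs, against 794.8 to 1171 CPM in the rest of its group.

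**Figure D1:**
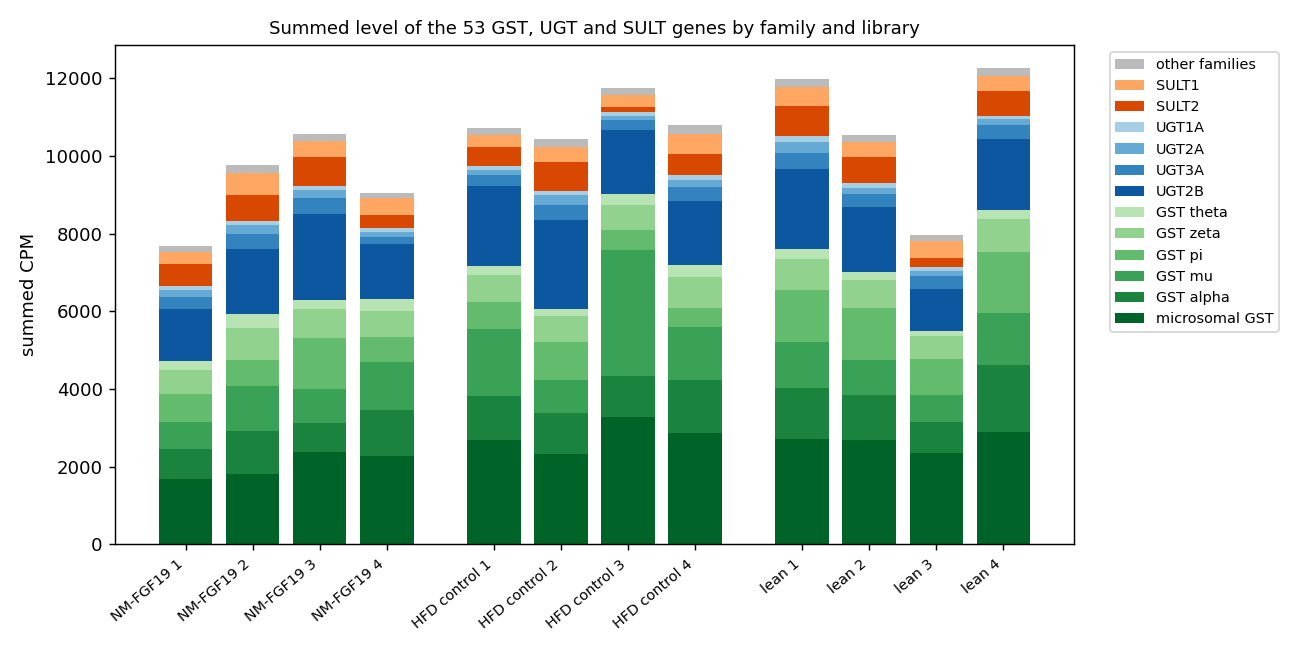
Summed level in CPM of the 53 members, stacked by family (green GST, blue UGT, orange SULT), with 1 bar per library and the groups NM-FGF19, HFD control and lean from left to right. HFD control 3 stands out by its GST mu share (3241 CPM) and its small SULT2 share (108.8 CPM), and the shortest bars are NM-FGF19 1 (7683 CPM) and lean 3 (7963 CPM).

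A few genes carried most of this output. Mgst1, a membrane-bound GST of the endoplasmic reticulum and mitochondria that also reduces lipid peroxides, Gsta3, Gstm1, Gstp1 and Gstz1 together held 56.4% of the summed CPM in NM-FGF19 livers, 61.2% in HFD control livers and 62.3% in lean livers. Per kilobase of exon, Mgst1 stood at 1005 ± 166 CPM in NM-FGF19 livers, 1379 ± 188.4 CPM in HFD control livers and 1321 ± 112.5 CPM in lean livers. On the same scale of CPM per kilobase, the next levels belonged to Gstp1 (526 ± 213 in NM-FGF19, 426 ± 149.2 in HFD control and 820 ± 172.9 in lean livers) and to Gstm1 (491 ± 139 in NM-FGF19, 982 ± 557 in HFD control and 519 ± 161 in lean livers). Among the UGTs, Ugt2b5 led with 216 ± 36.7 CPM per kilobase in NM-FGF19 livers, 247 ± 23.8 in HFD control livers and 222 ± 59.6 in lean livers, and Ugt2b36 did not differ from it beyond this spread in any group. The highest SULTs were Sult1a1, the phenol sulfotransferase, and Sult2a8. Sult1a1 stood at 197 ± 61.1 CPM per kilobase in NM-FGF19 livers, 134 ± 32.0 in HFD control livers and 190 ± 31.4 in lean livers. Sult2a8 stood at 175 ± 55.0 CPM per kilobase in NM-FGF19 livers, 143 ± 81.8 in HFD control livers and 175.5 ± 74.2 in lean livers, so it was above Sult1a1 in HFD control livers and below it in the other groups, each time by less than their spread.

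At the low end, 20 of the 73 genes did not reach 10 counts, and 16 of these had no count in any library. They included all 6 of Sult2a1 to Sult2a6, hydroxysteroid sulfotransferases whose best-known members are predominantly female in mouse liver, with 3 counts among them over all 12 libraries. Sult3a1, another SULT known as female-predominant in mouse liver, had 8 counts, so these genes were not described further in the male mice used here. A further 7 members, Gsto2, Mgst2, Ugt1a2, Ugt1a10, Sult2b1, Sult4a1 and Sult6b1, held 32 to 66 counts in all and were too low to test. Sult4a1, known as a brain sulfotransferase, averaged 0.0856 ± 0.0629 CPM in NM-FGF19 livers, 0.0264 ± 0.0528 CPM in HFD control livers and 0.206 ± 0.202 CPM in lean livers, at or near the floor. Sult6b1 averaged 0.159 ± 0.127 CPM in NM-FGF19 livers, 0.169 ± 0.119 CPM in HFD control livers and 0.0473 ± 0.0550 CPM in lean livers (SD, n = 4 each).

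Most members did not pass the test in any comparison. HFD control livers were compared with lean livers for the effect of diet, NM-FGF19 with HFD control livers for the effect of the mRNA, and NM-FGF19 with lean livers for what remained. The lean data columns name no mRNA, so a difference in control mRNA cannot be told apart from diet in the first comparison. Changes said to come with diet are changes in that comparison. Between HFD control and lean livers, 2 of the 46 members tested were higher (Gsta1 and Sult1c2) and 3 were lower (Gstm7, Gstp2 and Ugt2b38) at an edgeR adjusted p under 0.05. Over all 15274 genes tested, 8.33% passed in that comparison, 5.04% higher and 3.29% lower, so the members' share was near the background. At an unadjusted p under 0.05 there were 8 higher and 10 lower members, where 13% and 11.5% of all genes were, and DESeq2 called 4 higher and 7 lower, where it called 8.5% and 6.03% of all genes. The median log2 change of the members was 0.13, and that of all genes was -0.02. In 3 members every HFD control library lay above every lean library and in 5 every one lay below, where 8.4% and 6.89% of all genes did so.

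Between NM-FGF19 and HFD control livers, 1 member was higher (Gstm7) and 1 was lower (Gsta2), where 0.432% of all genes passed, 0.282% higher and 0.151% lower. There were 3 higher and 8 lower members at an unadjusted p under 0.05, where 4.75% and 4.2% of all genes were, and DESeq2 called 1 higher and 1 lower, where it called 1.15% and 0.746% of all genes. The median log2 change was -0.004 for the members and 0 for all genes. The groups were apart upward in 1 member and downward in 2 members, where 3.23% and 2.38% of all genes were. Between NM-FGF19 and lean livers, 0 members passed edgeR's test, where 1.49% of all genes did, 1.01% higher and 0.484% lower, and at an unadjusted p under 0.05 there were 2 higher and 7 lower members, where 9.16% and 7.58% of all genes were. DESeq2 called 1 higher and 4 lower members in that comparison, where it called 3.93% and 2.41% of all genes, and limma voom called 0 members. Ugt1a7c and Sult1c2 lay above the lean range in all NM-FGF19 libraries and Ugt1a9 and Gstp2 below it, which makes 2 members each way, where 5.46% and 4.84% of all genes did so. The HFD control libraries serve in the first 2 comparisons alike, so that the changes of a member in them are not independent. All 6 members that passed in any comparison averaged under 100 CPM, the highest at 59.8 CPM.

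The split between higher and lower calls depended on how libraries were scaled. With library totals in place of TMM, the median log2 change of all genes between HFD control and lean livers moved to 0.29, the calls over all genes were 2381 higher and 228 lower against 770 and 502 with TMM, and the members' calls were 9 higher and 2 lower. That scaling moved the median of all genes to -0.13 between NM-FGF19 and HFD control livers and to 0.17 between NM-FGF19 and lean livers.

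**Figure D2:**
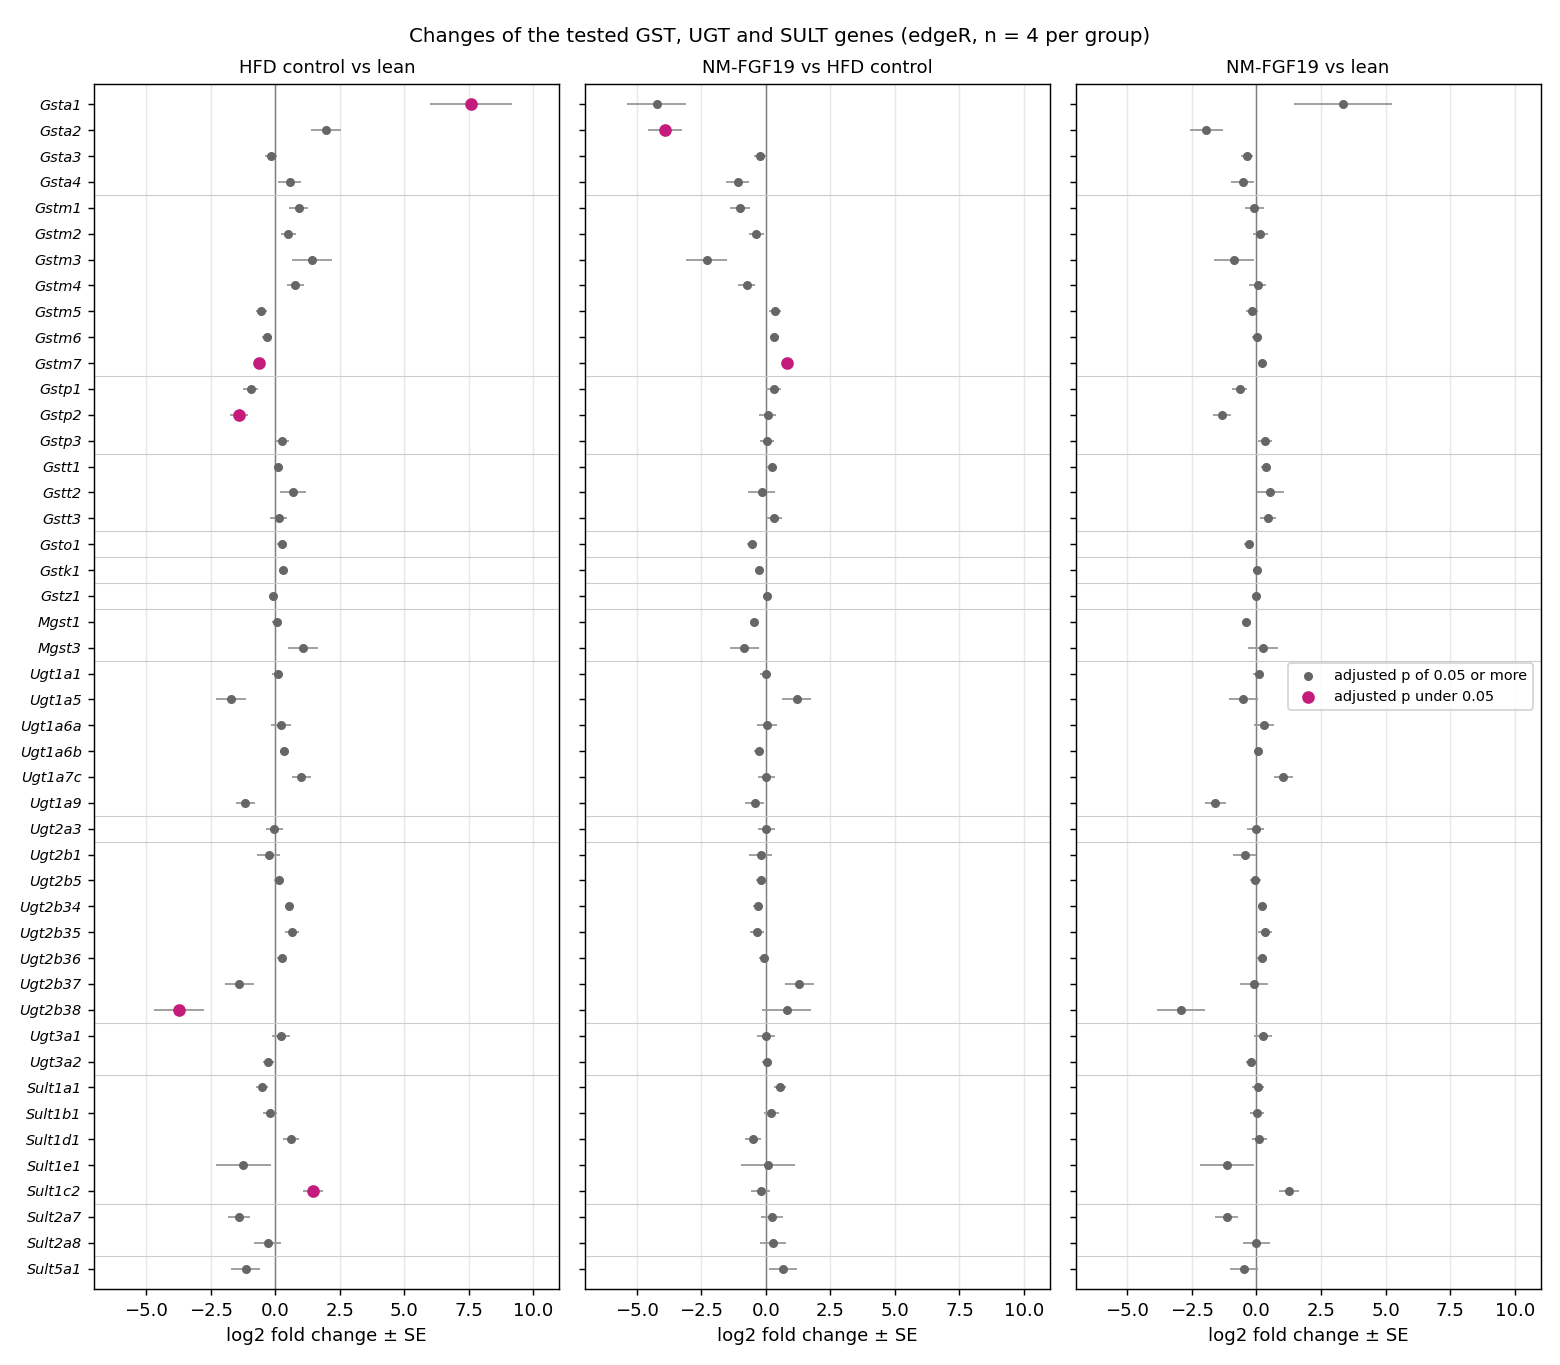
Log2 fold change of each of the 46 tested members with its SE, with 1 panel per comparison (left, HFD control over lean; middle, NM-FGF19 over HFD control; right, NM-FGF19 over lean), from a fit of 12 libraries (n = 4 per group); lines part the families and large coloured points passed an adjusted p of 0.05. There are 5 coloured points in the left panel, 2 in the middle panel and 0 in the right panel, and the widest SEs belong to Gsta1, Ugt2b38 and Sult1e1.

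The alpha class of GSTs, which conjugate electrophiles from lipid peroxidation and reduce fatty acid hydroperoxides, held both a call upward with diet and a call downward with NM-FGF19. Gsta2 had 0.579, 1.19, 1.47 and 1.29 CPM in the NM-FGF19 libraries, against 14.5, 4.63, 27.2 and 21.8 CPM in the HFD control libraries and 7.43, 2.28, 1.33 and 6.20 CPM in the lean libraries. All 4 NM-FGF19 libraries lay below all 4 HFD control libraries, and the ranges of NM-FGF19 and lean livers overlapped. Gsta2 fell by 3.91 ± 0.65 on the log2 scale in NM-FGF19 against HFD control livers (edgeR adjusted p = 0.0266). In HFD control against lean livers its log2 change was 1.97 ± 0.59 (edgeR adjusted p = 0.0595), and in NM-FGF19 against lean livers -1.94 ± 0.63 (edgeR adjusted p = 0.143). The fall stayed negative, at -4.22 to -3.59, when each library was left out in turn, but it passed in 6 of 12 such fits. The threshold was lost without NM-FGF19 1, 2 or 4 or HFD control 1, 3 or 4, with voom and with no filter on low counts, and over all 23 alternatives of edgeR, DESeq2 and voom the adjusted p ran from 7.58e-10 to 0.148.

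Gsta1, its nearest relative, was near the floor outside the HFD control group. It had 0.409, 0.154, 0 and 0.461 CPM in the NM-FGF19 libraries, against 2.85, 0.377, 15.2 and 1.14 CPM in the HFD control libraries, and 0, 0, 0 and 0.0874 CPM in the lean libraries. Every HFD control library lay above every lean library, HFD control 3 was far above the other 3, and the NM-FGF19 and HFD control ranges overlapped through HFD control 2. Those levels are sums of 30 counts in NM-FGF19 livers, 731 counts in HFD control livers and 2 counts in lean livers. The ratio of HFD control to lean livers was 235, with a counting interval of 64.8 to 1944 at 95%. That interval takes each count as a separate read pair and does not cover the spread between mice. Some members with few counts held mainly even numbers. Sult4a1 had 0, 2, 4 and 4 counts in the NM-FGF19 libraries, 4, 0, 0 and 0 in HFD control and 2, 0, 8 and 8 in lean. If both reads of a pair were counted, the interval is too narrow. HFD control 3 held 570 of the 731 counts. Gsta1 rose by 7.57 ± 1.59 on the log2 scale (edgeR adjusted p = 0.0174). With so few counts in lean livers the fitted change depends on the prior count and ran from 5.82 to 10.21 when single libraries were left out. The call was lost without lean 2 or lean 4, with voom and with no filter on low counts, and over 22 alternatives of edgeR, DESeq2 and voom the adjusted p ran from 0.000191 to 0.133. In NM-FGF19 against HFD control livers the log2 change of Gsta1 was -4.23 ± 1.15 (edgeR adjusted p = 0.199).

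Reads of this pair may be shared with unnamed neighbours. In transcripts of GENCODE M21, 81.7% of the 101-base windows of Gsta1, the length of 1 read, also occur in another gene. For Gsta2 the share was 34.8%. Reads came in pairs, and a pair can also be told apart by its other read. Window shares here and below may therefore overstate how many pairs fit several genes. The gene sharing most windows was the gene model Gm3776 for Gsta1 and Gm10639 for Gsta2. Gm3776 was also highest in HFD control livers, with 0.0835 ± 0.0996 CPM in NM-FGF19 livers, 1.69 ± 2.06 CPM in HFD control livers and 0.0561 ± 0.0678 CPM in lean livers (SD, n = 4 each). Its NM-FGF19 and lean means were at or near the floor. HFD control 3 held 4.72 CPM, against 0.145 to 1.16 CPM in the rest of its group. Gsta1 and Gsta2 summed as 1 gene fell by 3.98 ± 0.68 on the log2 scale in NM-FGF19 against HFD control livers (edgeR adjusted p = 0.0301) and rose by 2.33 ± 0.62 in HFD control against lean livers (edgeR adjusted p = 0.0416). The sum with both gene models gave 1.13, 1.35, 1.47 and 1.94 CPM in the NM-FGF19 libraries, 18.6, 5.16, 47.1 and 23.7 CPM in the HFD control libraries and 7.56, 2.28, 1.33 and 6.38 CPM in the lean libraries. The NM-FGF19 and HFD control ranges of this sum were apart, and those of NM-FGF19 and lean livers overlapped.

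The promoters of both genes are printed because each passed in a comparison with the HFD control group, and because they show how alike the copies are. Both lie on chromosome 9 and run from 250 bases before to 50 after the transcript start in RefSeq on GRCm38.p6, at chr9:78230419-78230718 on the plus strand for Gsta1 and chr9:78347096-78347395 on the minus strand for Gsta2. Capitals mark GCGTG, the core that the AHR and ARNT pair is known to recognise.
Gsta1: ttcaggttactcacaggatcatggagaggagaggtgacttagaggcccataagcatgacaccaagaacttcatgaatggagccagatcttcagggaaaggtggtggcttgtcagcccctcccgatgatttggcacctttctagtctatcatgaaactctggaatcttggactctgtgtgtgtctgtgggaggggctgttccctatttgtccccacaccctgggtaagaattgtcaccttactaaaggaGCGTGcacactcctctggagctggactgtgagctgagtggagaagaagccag
Gsta2: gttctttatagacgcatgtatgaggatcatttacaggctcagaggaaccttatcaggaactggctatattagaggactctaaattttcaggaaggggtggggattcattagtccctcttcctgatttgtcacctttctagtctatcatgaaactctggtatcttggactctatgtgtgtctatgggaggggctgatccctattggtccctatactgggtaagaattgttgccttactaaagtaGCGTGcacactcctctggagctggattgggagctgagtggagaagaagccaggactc
Over 284 aligned bases the 2 promoters were 84.9% identical, and over 145 aligned bases of their last 150 they were 91.7% identical. GCGTG occurs on either strand in 32.4% of the 32851 promoters of the table, so its presence is common, and the encoded proteins were 95.5% identical. The AHR target list outside the families (5 genes tested) had 0 genes called by edgeR and by voom in each comparison. In HFD control against lean livers 2 of them were higher and 1 was lower at an unadjusted p under 0.05, with 1 called by DESeq2, and in NM-FGF19 against HFD control livers 1 was lower by both measures. In NM-FGF19 against lean livers 1 was lower at an unadjusted p under 0.05 and DESeq2 called 0.

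The other alpha members did not pass. Gsta3, the main alpha GST of these livers and the one that detoxifies aflatoxin epoxide in mice, averaged 944.7 ± 229.7 CPM in NM-FGF19 livers, 1103 ± 136.4 CPM in HFD control livers and 1223 ± 375.9 CPM in lean livers (SD, n = 4 each). Its log2 change was -0.22 ± 0.23 in NM-FGF19 against HFD control livers (edgeR adjusted p = 0.863) and -0.15 ± 0.23 in HFD control against lean livers (edgeR adjusted p = 0.745). Gsta4, which conjugates 4-hydroxynonenal and is named after its values were seen, reached 48.6 CPM in HFD control 3, against 9.24 to 29.8 CPM in the other HFD control libraries.

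Of the mu class, 7 genes in a cluster on chromosome 3, only Gstm7 passed edgeR's test in any comparison. It had 67.1, 85.9, 64.0 and 77.6 CPM in the NM-FGF19 libraries, against 44.1, 37.6, 39.7 and 45.0 CPM in the HFD control libraries and 62.3, 58.8, 58.6 and 76.5 CPM in the lean libraries. All HFD control libraries lay below all libraries of the other groups, while NM-FGF19 and lean libraries were interleaved. Gstm7 rose by 0.82 ± 0.13 on the log2 scale in NM-FGF19 against HFD control livers (edgeR adjusted p = 0.0148). It fell by 0.62 ± 0.13 in HFD control against lean livers (edgeR adjusted p = 0.0135), and its log2 change in NM-FGF19 against lean livers was 0.20 ± 0.13 (edgeR adjusted p = 0.462). No 101-base window of its GENCODE M21 transcript occurs in a transcript of another gene.

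The fall of Gstm7 with diet passed in all 12 fits that left out a library and lost the threshold with library totals alone, at a log2 change of -0.31 (edgeR adjusted p = 0.160). Its rise with NM-FGF19 passed in 9 of those 12 fits and was lost without NM-FGF19 2, HFD control 1 or HFD control 3, and with library totals alone, where it was 0.69 (edgeR adjusted p = 0.0728). Over 23 alternatives of edgeR, DESeq2 and voom the adjusted p of the rise ran from 1.80e-06 to 0.0728, and that of the fall from 0.000320 to 0.160. The hepatocyte marker sums above are ordered like Gstm7, with HFD control livers lowest, and the part of hepatocyte content in its change was not tested.

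A Gstm7 promoter entry is shown, since Gstm7 is the only member that passed in 2 comparisons. It is also 1 of 4 members with a promoter entry that holds the antioxidant response core. The printed entry is the first by coordinate of 2 RefSeq entries for the gene on GRCm38.p6, at chr3:107931565-107931864 on the minus strand. Capitals mark TGACNNNGC, the core that NRF2 is known to recognise.
Gstm7: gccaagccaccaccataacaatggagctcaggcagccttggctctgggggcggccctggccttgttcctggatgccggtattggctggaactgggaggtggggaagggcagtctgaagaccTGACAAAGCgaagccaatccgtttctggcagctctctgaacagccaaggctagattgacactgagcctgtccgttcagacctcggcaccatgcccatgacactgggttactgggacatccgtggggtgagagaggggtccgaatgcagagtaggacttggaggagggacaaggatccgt
The core was found on either strand in 12.4% of all promoters of the table and in 6.8% of the 59 entries of members, where it occurred for Gsta3, Gstm5, Gstm7 and Mgst1. The second Gstm7 entry, chr3:107931768-107932067, held none. Its transcript start lies upstream on the minus strand, and the marked core falls past the end of that entry. The core is thus upstream of the start of the printed entry and downstream of the start of the second. Most of the printed stretch lies past the start of the second entry, so for that transcript it is sequence inside the gene and not its promoter. Of the other motifs searched on both strands, the nuclear receptor half-site AGGTCA occurred in 20.3% of members' entries and 16.3% of all promoters, AGTTCA in 11.9% and 14.0%, and GCGTG in 22.0% and 32.4%. A total of 47 members had an entry, and a match is a run of letters, not a bound site.

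**Figure D3:**
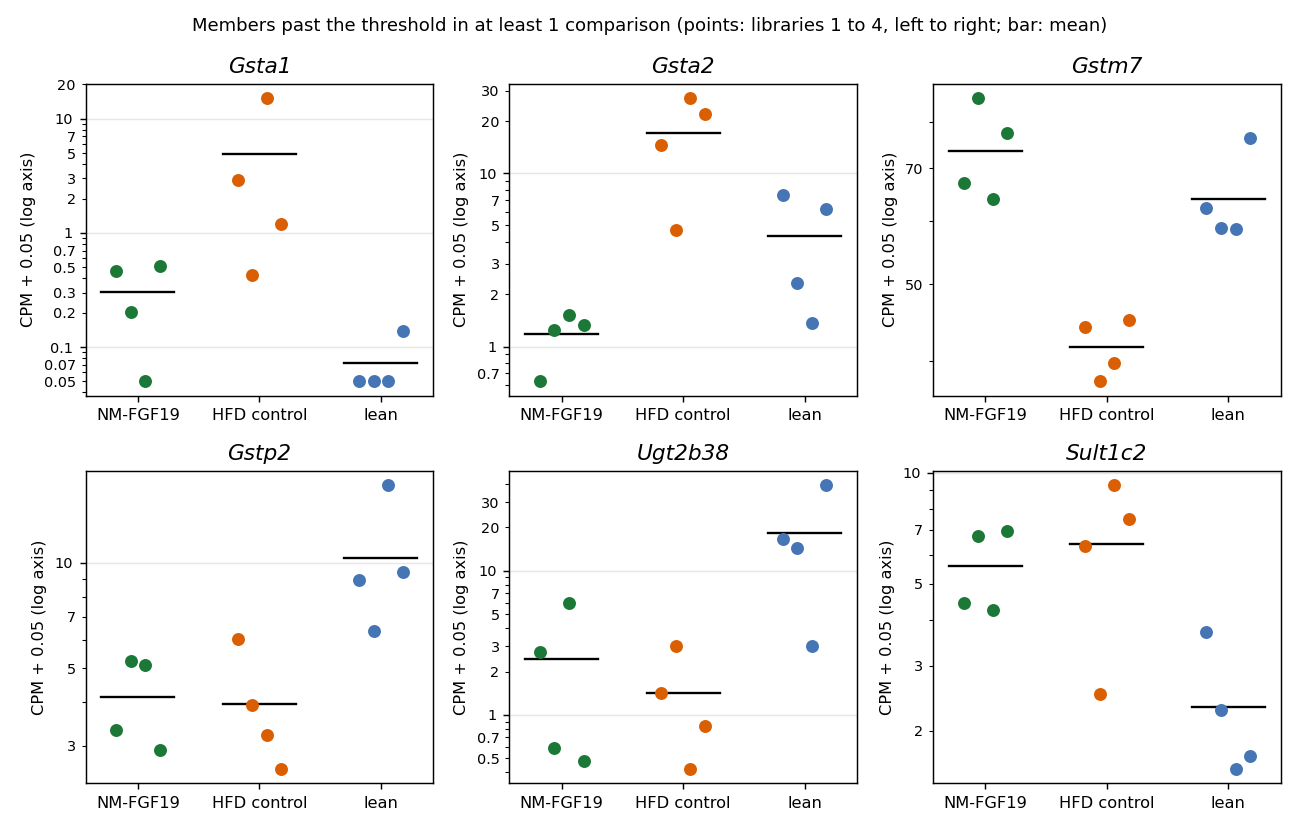
Level of the 6 members that passed in at least 1 comparison, as CPM + 0.05 on log axes, with 1 point per library (1 to 4 from left to right), a bar at the group mean, and NM-FGF19, HFD control and lean from left to right. The HFD control points of Gstm7 (37.6 to 45.0 CPM) lie under all others of that gene, and the NM-FGF19 points of Gsta2 (0.579 to 1.47 CPM) lie under all HFD control points.

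Gstm1, the most abundant mu GST, had 479.5, 848.3, 633.1 and 929.9 CPM in the NM-FGF19 libraries, against 1410, 667.2, 2589 and 1117 CPM in the HFD control libraries and 915.6, 675.1, 474.3 and 994.3 CPM in the lean libraries. Its high mean in HFD control livers came with a wide spread, HFD control 2 sat inside the lean range, and no pair of groups was apart. The log2 change was -1.001 ± 0.372 in NM-FGF19 against HFD control livers (edgeR adjusted p = 0.425) and 0.92 ± 0.37 in HFD control against lean livers (edgeR adjusted p = 0.147). HFD control 3 was the highest library of its group for 6 of the 7 mu genes, all but Gstm7. Gstm3, named after its values were seen, had 312.2 CPM in that library and 15.6 to 54.9 CPM in the other HFD control libraries, with 14.9 to 28.1 CPM over the NM-FGF19 and 27.9 to 58.9 CPM over the lean libraries. Log2 changes of the mu members ran from -0.62 to 1.42 in HFD control against lean livers and from -2.29 to 0.82 in NM-FGF19 against HFD control livers.

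Of 3 tested pi genes, Gstp2 was lower in HFD control than in lean livers, and Gstp1 and Gstp3, which were both more abundant, did not pass. Gstp1, a broad-range GST that is predominantly male in mouse liver, had 700.2, 642.3, 1306 and 610.9 CPM in the NM-FGF19 libraries, against 679.8, 978.5, 502.8 and 477.4 CPM in the HFD control libraries and 1311, 1314, 905.6 and 1550 CPM in the lean libraries. One HFD control library, number 2, lay above lean 3, and NM-FGF19 3 lay inside the lean range. The log2 change of Gstp1 was -0.95 ± 0.29 in HFD control against lean livers (edgeR adjusted p = 0.0609), 0.31 ± 0.29 in NM-FGF19 against HFD control livers (edgeR adjusted p = 0.838) and -0.64 ± 0.29 in NM-FGF19 against lean livers (edgeR adjusted p = 0.285).

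Gstp2 had 3.27, 5.19, 5.05 and 2.87 CPM in the NM-FGF19 libraries, against 5.99, 3.88, 3.17 and 2.53 CPM in the HFD control libraries and 8.90, 6.31, 16.6 and 9.35 CPM in the lean libraries. Both groups on the high-fat diet lay below all lean libraries. Gstp2 fell by 1.40 ± 0.33 on the log2 scale in HFD control against lean livers (edgeR adjusted p = 0.0234), with a log2 change of 0.07 ± 0.33 in NM-FGF19 against HFD control livers (edgeR adjusted p = 0.985) and of -1.33 ± 0.33 in NM-FGF19 against lean livers (edgeR adjusted p = 0.0681). The fall lost the threshold without lean 3, HFD control 3 or HFD control 4, and over 23 alternatives of edgeR, DESeq2 and voom its adjusted p ran from 0.00123 to 0.129. Lean 3, which held the highest Gstp2 level (16.6 CPM), held the lowest Gstp1 level of its group (905.6 CPM).

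Gstp3, named after its values were seen, had 16.7, 16.5, 8.26 and 25.8 CPM in the NM-FGF19 libraries, against 17.9, 12.5, 19.6 and 15.1 CPM in the HFD control libraries and 15.0, 12.4, 11.5 and 14.8 CPM in the lean libraries. The 3 groups overlapped. Its log2 change had the other sign in HFD control against lean livers, at 0.28 ± 0.27 (edgeR adjusted p = 0.569), and it was 0.05 ± 0.26 in NM-FGF19 against HFD control livers (edgeR adjusted p = 0.986) and 0.33 ± 0.27 in NM-FGF19 against lean livers (edgeR adjusted p = 0.584). Its protein was 70.0% identical to that of Gstp1 and 70.5% to that of Gstp2, and 0 of the 101-base windows of its GENCODE M21 transcript occur in another gene.

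Gstp1 and Gstp2, both on chromosome 19 as is Gstp3, encode proteins that were 97.1% identical. Of the Gstp2 windows, 63.3% occur in another gene, most of all in Gstp1. Their coding sequences differ at 12 of 630 bases, of which 6 lie in the first 60. That stretch is printed from GENCODE M21 transcripts because it holds the letters that tell reads of the 2 genes apart, with the differing bases in capitals.
Gstp1: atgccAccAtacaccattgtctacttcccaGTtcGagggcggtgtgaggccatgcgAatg
Gstp2: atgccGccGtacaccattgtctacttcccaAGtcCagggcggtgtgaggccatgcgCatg
How reads that fit both copies were counted is not given in the sources used here, and Gstp1 had over 100 CPM where Gstp2 had under 20, so the level of Gstp2 is uncertain. Summed as 1 gene, they changed by -0.95 ± 0.29 on the log2 scale in HFD control against lean livers (edgeR adjusted p = 0.0591).

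The remaining GSTs included the most abundant member of all and none that passed. Mgst1 had 1685, 1793, 2362 and 2254 CPM in the NM-FGF19 libraries, against 2669, 2329, 3237 and 2864 CPM in the HFD control libraries and 2704, 2679, 2353 and 2900 CPM in the lean libraries. NM-FGF19 3 lay just above HFD control 2 and lean 3, so no pair of groups was apart. The log2 change of Mgst1 was -0.46 ± 0.17 in NM-FGF19 against HFD control livers (edgeR adjusted p = 0.405), and in HFD control against lean livers it was 0.06 ± 0.17 (edgeR adjusted p = 0.860). Gstz1, the zeta GST that isomerises maleylacetoacetate in tyrosine breakdown, averaged 720.9 ± 91.7 CPM in NM-FGF19 livers, 704.3 ± 74.8 CPM in HFD control livers and 737.5 ± 109.1 CPM in lean livers (SD, n = 4 each). Its log2 changes lay between -0.07 and 0.03 in the 3 comparisons.

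Gstt1, the theta GST for small halogenated compounds, averaged 183.4 ± 27.3 CPM in NM-FGF19 livers, 156.0 ± 25.5 CPM in HFD control livers and 143.5 ± 29.9 CPM in lean livers (SD, n = 4 each). Gstk1, the mitochondrial and peroxisomal kappa GST, averaged 92.6 ± 16.5 CPM in NM-FGF19 livers, 111.3 ± 14.1 CPM in HFD control livers and 90.5 ± 14.1 CPM in lean livers. For NM-FGF19 against HFD control livers the edgeR adjusted p was 0.780 for Gstt1 and 0.691 for Gstk1. Gsto1, an omega GST that reduces dehydroascorbate and mixed disulfides, had 39.8, 66.5, 59.2 and 49.1 CPM in the NM-FGF19 libraries, against 77.4, 66.8, 69.8 and 98.4 CPM in the HFD control libraries and 77.6, 61.9, 49.2 and 73.0 CPM in the lean libraries. The NM-FGF19 and HFD control ranges were apart by less than 1 CPM, and the log2 change of -0.54 ± 0.19 did not pass (edgeR adjusted p = 0.365).

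The UGT1A genes share their last exons, so that the 8 members are alternative first exons of 1 locus on chromosome 1. The last 737 coding bases, which encode 245 residues, were identical in all 8 and made up 45.9 to 46.5% of the coding length. The junction is printed for Ugt1a1 and Ugt1a9 from GENCODE M21 transcripts, with bases 829 to 908 of the Ugt1a1 and 808 to 887 of the Ugt1a9 coding sequence, because it shows where a read stops telling the members apart. Capitals mark the shared part.
Ugt1a1: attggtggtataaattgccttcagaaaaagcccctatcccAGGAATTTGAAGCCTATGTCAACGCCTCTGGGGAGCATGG
Ugt1a9: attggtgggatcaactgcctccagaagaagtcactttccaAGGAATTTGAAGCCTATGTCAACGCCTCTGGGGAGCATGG
Between 57.2% and 100% of a member's 101-base windows occur in another gene, with Ugt1a6a at 100%. Reads of the shared exons were not given to all members alike. Ugt1a10 and Ugt1a2, named after their values were seen, held 49 and 66 counts over 12 libraries, against 19498 for Ugt1a1. What was done with such reads is not given, so levels of single UGT1A genes stay uncertain, and the sum may leave these reads out.

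The UGT1A sum was 102.0, 110.2, 105.4 and 116.7 CPM in the NM-FGF19 libraries, against 104.4, 101.7, 105.3 and 125.8 CPM in the HFD control libraries and 149.7, 113.7, 103.9 and 82.0 CPM in the lean libraries. The lean libraries spread on both sides of the others. Counted as 1 gene, the log2 change was -0.01 ± 0.16 in NM-FGF19 against HFD control livers (edgeR adjusted p = 0.993) and -0.04 ± 0.16 in HFD control against lean livers (edgeR adjusted p = 0.908). Bounds of 2 SEs around these values were -0.33 to 0.31 for NM-FGF19 against HFD control livers and -0.36 to 0.28 for HFD control against lean livers. Ugt1a1, the bilirubin UGT, averaged 55.3 ± 4.92 CPM in NM-FGF19 livers, 55.6 ± 10.3 CPM in HFD control livers and 51.9 ± 19.4 CPM in lean livers (SD, n = 4 each). Its log2 changes lay between -0.01 and 0.10, and those of Ugt1a6a, which glucuronidates small planar phenols, between 0.05 and 0.27.

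Minor first exons had values on both sides of 0 and did not pass. Ugt1a9, named after its values were seen, had 1.60, 3.08, 4.35 and 3.13 CPM in the NM-FGF19 libraries, against 2.48, 2.67, 7.98 and 3.32 CPM in the HFD control libraries and 11.3, 10.7, 7.24 and 7.25 CPM in the lean libraries. All NM-FGF19 libraries lay below all lean libraries, and HFD control 3 lay inside the lean range. The log2 change was -1.59 ± 0.39 in NM-FGF19 against lean livers (edgeR adjusted p = 0.0637) and -1.15 ± 0.38 in HFD control against lean livers (edgeR adjusted p = 0.0806). Without lean 3 and HFD control 3, libraries picked by the members' own levels, Ugt1a9 was the 1 member called in NM-FGF19 against lean livers.

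UGT2B enzymes, which glucuronidate steroids, bile acids and many drugs, made up most of the UGT output, at 1669 ± 395.6 CPM in NM-FGF19 livers, 1921 ± 316.4 CPM in HFD control livers and 1664 ± 421.4 CPM in lean livers (SD, n = 4 each). The major genes did not pass. Ugt2b36 averaged 441.3 ± 64.4 CPM in NM-FGF19 livers, 461.6 ± 17.5 CPM in HFD control livers and 382.9 ± 101.9 CPM in lean livers, with a log2 change of -0.06 ± 0.19 in NM-FGF19 against HFD control livers (edgeR adjusted p = 0.968). Ugt2b1 had 249.1, 256.1, 566.8 and 139.4 CPM in the NM-FGF19 libraries, 384.9, 584.6, 182.0 and 242.0 CPM in the HFD control libraries and 539.8, 387.6, 223.0 and 509.8 CPM in the lean libraries. Its mice differed more within a group than the groups did among themselves.

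Ugt2b38 was the 1 UGT that passed. It had 2.69, 0.538, 5.95 and 0.428 CPM in the NM-FGF19 libraries, against 1.37, 2.98, 0.373 and 0.795 CPM in the HFD control libraries and 16.5, 14.3, 2.96 and 39.2 CPM in the lean libraries. HFD control 2 and lean 3 were nearly equal, so the groups touched, and the other lean libraries were above every library on the high-fat diet. Ugt2b38 fell by 3.73 ± 0.98 on the log2 scale in HFD control against lean livers (edgeR adjusted p = 0.0410), and its log2 change was 0.81 ± 0.94 in NM-FGF19 against HFD control livers (edgeR adjusted p = 0.887). The call was kept in 5 of 12 fits that left out a library and was lost without NM-FGF19 1, HFD control 1, 3 or 4, or lean 1, 2 or 4, without lean 3 and HFD control 3 together, with voom and with no filter. Over 23 alternatives of edgeR, DESeq2 and voom the adjusted p ran from 0.00203 to 0.813, the last with its close copy added.

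Ugt2b5, its close copy on chromosome 5, was far more abundant and did not pass, with 400.6 ± 68.2 CPM in NM-FGF19 livers, 458.2 ± 44.1 CPM in HFD control livers and 411.6 ± 110.7 CPM in lean livers (SD, n = 4 each). The proteins were 96.4% identical, and the coding sequences differ at 47 of 1590 bases. Of the Ugt2b38 windows, 24.1% occur in another gene, most of all in Ugt2b5. Bases 1467 to 1526 are printed from GENCODE M21 transcripts because 9 of these differences cluster there, shown in capitals.
Ugt2b38: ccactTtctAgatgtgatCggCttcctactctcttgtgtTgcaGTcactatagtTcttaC
Ugt2b5: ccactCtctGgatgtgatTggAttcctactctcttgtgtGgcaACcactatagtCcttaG
Summed as 1 gene, Ugt2b38 and Ugt2b5 changed by 0.10 ± 0.20 on the log2 scale in HFD control against lean livers (edgeR adjusted p = 0.813), and nearly all of the sum is Ugt2b5.

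**Figure D4:**
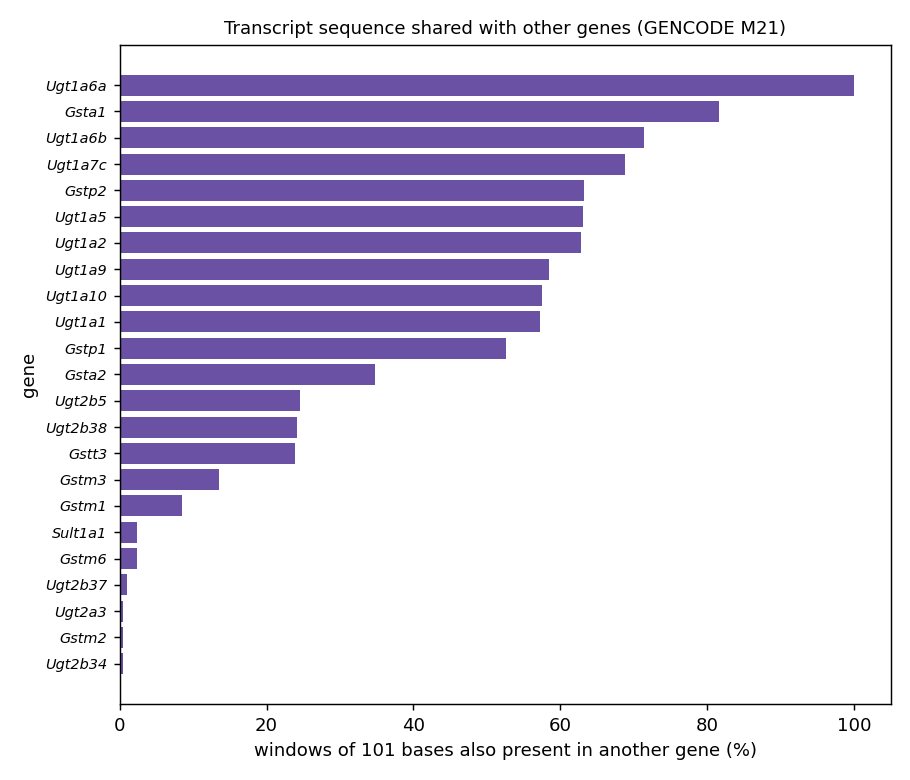
Share in percent of the 101-base windows of a member's GENCODE M21 transcript that also occur in a transcript of another gene, for the 23 members with any such window. The other 30 members, Gstm7 and Sult1c2 among them, share none, and the UGT1A genes with Gsta1, Gstp1 and Gstp2 all exceed 50%.

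The UGT2A and UGT3A genes did not pass in any comparison. Ugt2a3 averaged 175.7 ± 52.6 CPM in NM-FGF19 livers, 173.9 ± 63.8 CPM in HFD control livers and 178.5 ± 73.8 CPM in lean livers, with log2 changes between -0.04 and 0.01 and an SE of 0.32. Ugt3a2, whose human counterpart uses UDP-glucose rather than UDP-glucuronic acid, averaged 287.8 ± 79.0 CPM in NM-FGF19 livers, 275.7 ± 49.8 CPM in HFD control livers and 330.2 ± 19.4 CPM in lean livers (SD, n = 4 each). Ugt3a1 averaged 38.8 ± 17.4 CPM in NM-FGF19 livers, 38.8 ± 12.2 CPM in HFD control livers and 32.8 ± 6.34 CPM in lean livers. NM-FGF19 4 held the lowest level of its group for both, at 182.6 CPM of Ugt3a2 and 14.3 CPM of Ugt3a1.

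Among the sulfotransferases 1 of 8 tested members passed in 1 comparison. Sult1c2, a phenol sulfotransferase of the 1C subfamily, had 4.40, 6.69, 4.21 and 6.89 CPM in the NM-FGF19 libraries, against 6.28, 2.46, 9.20 and 7.44 CPM in the HFD control libraries and 3.66, 2.23, 1.53 and 1.66 CPM in the lean libraries. HFD control 2 lay inside the lean range, while all 4 NM-FGF19 libraries lay above it. Sult1c2 rose by 1.47 ± 0.38 on the log2 scale in HFD control against lean livers (edgeR adjusted p = 0.0334). In NM-FGF19 against HFD control livers its log2 change was -0.20 ± 0.37 (edgeR adjusted p = 0.944), and in NM-FGF19 against lean livers 1.28 ± 0.38 (edgeR adjusted p = 0.111). The rise passed in 6 of 12 fits that left out a library and was lost without HFD control 1, 3 or 4 or lean 2, 3 or 4, without lean 3 and HFD control 3 together, with voom and in a fit of the 2 groups alone. Over 23 alternatives of edgeR, DESeq2 and voom the adjusted p ran from 0.00258 to 0.160.

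Sult1a1 had 214.3, 397.7, 224.4 and 353.4 CPM in the NM-FGF19 libraries, against 159.0, 181.3, 199.3 and 270.4 CPM in the HFD control libraries and 326.3, 272.6, 320.7 and 225.1 CPM in the lean libraries. Ranges overlapped through HFD control 4, and the log2 change was 0.55 ± 0.23 in NM-FGF19 against HFD control livers (edgeR adjusted p = 0.480). Sult1d1, which sulfates catecholamines and other amines in mice, averaged 103.6 ± 37.2 CPM in NM-FGF19 livers, 145.8 ± 57.7 CPM in HFD control livers and 95.6 ± 13.3 CPM in lean livers (SD, n = 4 each). Sult1b1, known for thyroid hormones, averaged 20.9 ± 7.65 CPM in NM-FGF19 livers, 18.01 ± 5.13 CPM in HFD control livers and 20.5 ± 5.43 CPM in lean livers. Neither passed in any comparison.

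Sult1e1, the estrogen sulfotransferase, varied widely among mice of 1 group, with 5.32, 6.73, 9.60 and 0.989 CPM in the NM-FGF19 libraries, 1.79, 10.6, 5.71 and 3.04 CPM in the HFD control libraries and 0.548, 3.90, 5.40 and 39.8 CPM in the lean libraries. A single lean library was above all others, and the SE of its log2 changes was 1.05 to 1.06. Sult2a8, which sulfates bile acids in mouse liver and so acts on the acids whose synthesis FGF19 restrains, had 557.0, 652.6, 757.4 and 334.0 CPM in the NM-FGF19 libraries, against 483.1, 753.6, 108.0 and 537.3 CPM in the HFD control libraries and 787.0, 675.5, 226.7 and 616.8 CPM in the lean libraries. The groups overlapped, and HFD control 3 and lean 3 were each far below the rest of their group. The log2 change of Sult2a8 was 0.29 ± 0.51 in NM-FGF19 against HFD control livers (edgeR adjusted p = 0.938), with bounds of 2 SEs at -0.73 and 1.31. Sult5a1, whose substrates are little known, averaged 22.3 ± 12.1 CPM in NM-FGF19 livers, 14.1 ± 9.43 CPM in HFD control livers and 30.9 ± 8.02 CPM in lean livers (SD, n = 4 each).

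Within the HFD control group the libraries split the families. HFD control 3 was the highest of its group in 13 of 22 GSTs, 4 of 16 UGTs and 1 of 8 SULTs, and the lowest in 3 GSTs, 6 UGTs and 5 SULTs. HFD control 2 was the lowest in 17 of 22 GSTs and the highest in 8 UGTs and 4 SULTs. In the lean group, lean 3 was the lowest in 19 of 22 GSTs, 12 of 16 UGTs and 4 of 8 SULTs. Lean 3 also had the lowest TMM factor of all libraries, 0.779, which raises its CPM, so with library totals alone its levels lie lower still.

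**Figure D5:**
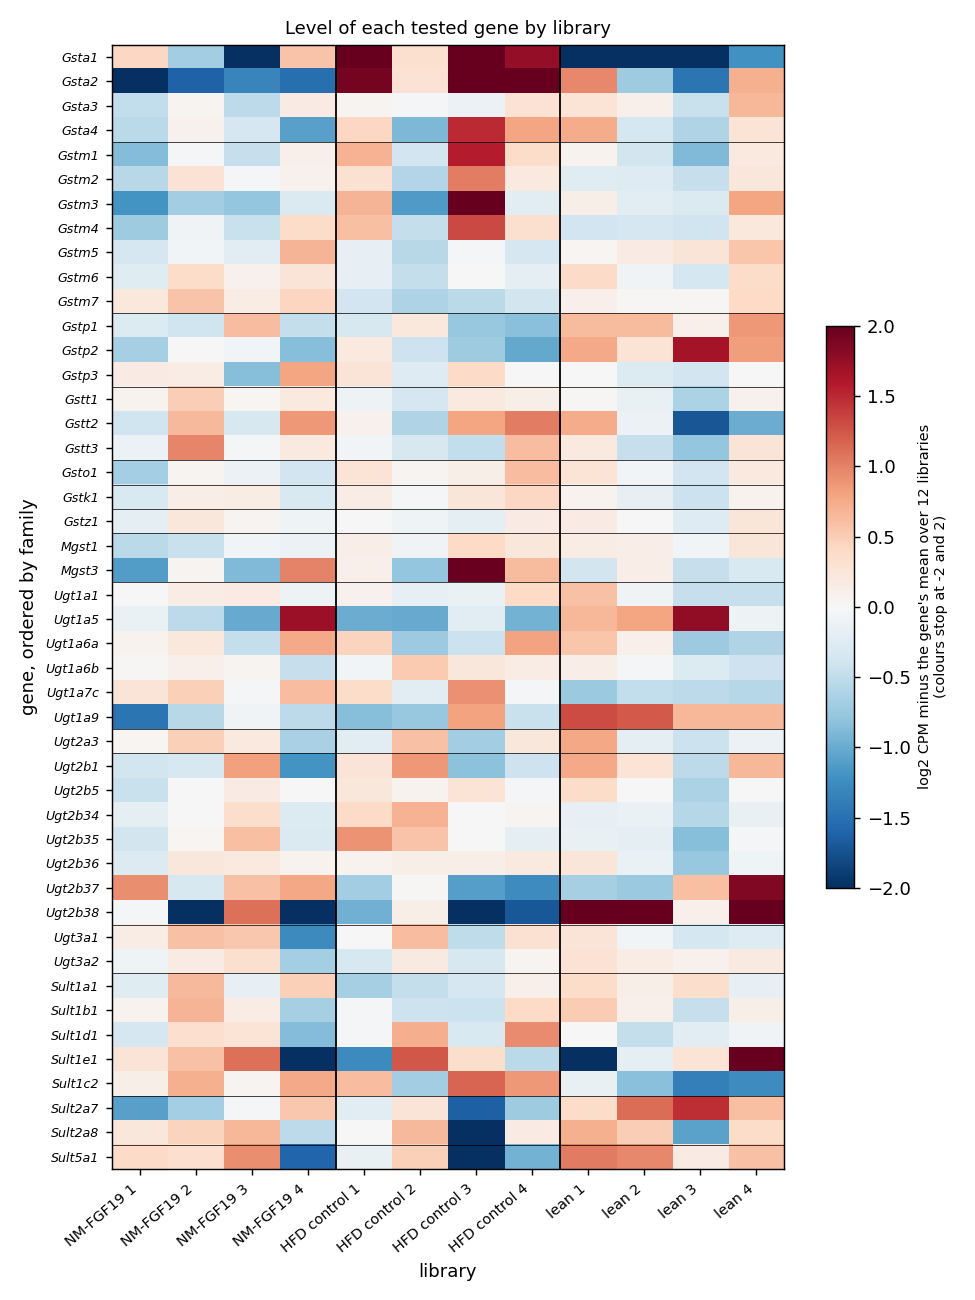
Log2 CPM of each tested member minus its mean over 12 libraries, with genes in rows by family and libraries in columns in the order NM-FGF19, HFD control and lean; red is above and blue below the mean, and colours stop at 2. HFD control 3 is red for Gsta1, Gsta2, Gsta4 and Gstm1 to Gstm4 and blue for Sult2a8 and Sult5a1, and Gstm7 is blue in all 4 HFD control libraries.

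Of 9 tested genes of UDP-glucuronate supply, Ugp2, which makes UDP-glucose, rose by 0.73 ± 0.20 on the log2 scale in HFD control against lean livers (edgeR adjusted p = 0.0429), and Slc35b1, a nucleotide carrier of the endoplasmic reticulum, fell by 0.74 ± 0.17 (edgeR adjusted p = 0.0196). Ugp2 also rose by 0.90 in NM-FGF19 against lean livers (edgeR adjusted p = 0.0457). Between NM-FGF19 and HFD control livers 0 genes of this list passed by edgeR or voom, 1 was higher and 1 lower at an unadjusted p under 0.05, and DESeq2 called 1 lower. Ugdh, which makes UDP-glucuronate, averaged 91.0 ± 14.5 CPM in NM-FGF19 livers and 199.4 ± 59.1 CPM in HFD control livers (SD, n = 4 each), a log2 change of -1.13 ± 0.26 (edgeR adjusted p = 0.1). Of 10 tested genes of PAPS supply and sulfate use, Slc35b3, a Golgi carrier of the sulfate donor PAPS, fell by 1.11 ± 0.27 in HFD control against lean livers (edgeR adjusted p = 0.0266). Csad, a taurine synthesis enzyme that uses cysteine sulfur, fell by 3.13 in NM-FGF19 against HFD control livers (edgeR adjusted p = 0.00487). Of 14 tested genes of glutathione supply, Gclc, the catalytic subunit of the first enzyme of glutathione synthesis, rose by 1.02 ± 0.23 in HFD control against lean livers (edgeR adjusted p = 0.0201), and 0 passed edgeR's test in NM-FGF19 against HFD control livers, where 4 were lower at an unadjusted p under 0.05, DESeq2 called 1 lower and voom 0.

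Other targets of the sensors that are known to drive these families gave the following counts. The 12 sensor genes gave 0 calls by edgeR and voom in each comparison, with 1 higher and 2 lower at an unadjusted p under 0.05 and 1 higher by DESeq2 in HFD control against lean livers. In NM-FGF19 against HFD control livers 1 sensor was lower at an unadjusted p under 0.05 and DESeq2 called 0, and in NM-FGF19 against lean livers both counts were 0. Of 16 tested NRF2 targets outside the families, 2 were higher in HFD control than in lean livers. These were Ephx1 and Gclc, and Gclc is also counted under glutathione supply. In that comparison 6 were higher and 1 was lower at an unadjusted p under 0.05, and DESeq2 called 5 higher. Ephx1, the microsomal epoxide hydrolase, fell by 1.80 in NM-FGF19 against HFD control livers (edgeR adjusted p = 0.00786). There 1 target was higher and 4 were lower at an unadjusted p under 0.05, and DESeq2 called 2 lower. Of 21 tested CAR and PXR targets, 3 were higher in HFD control than in lean livers by edgeR and 2 by voom. DESeq2 called 5 higher and 1 lower there, and 8 were higher and 1 was lower at an unadjusted p under 0.05. Cyp3a11, a cytochrome P450 of drug and bile acid oxidation, rose by 3.82 ± 0.74 (edgeR adjusted p = 0.0132), Abcb1a, a drug efflux pump, by 2.26 ± 0.56 (edgeR adjusted p = 0.0272), and Abcc3, an exporter of conjugates into blood, by 2.23 ± 0.37 (edgeR adjusted p = 0.00772). The median log2 change of this list was 0.66 in HFD control against lean livers and -0.84 in NM-FGF19 against HFD control livers, against -0.02 and 0 over all genes. In NM-FGF19 against HFD control livers 0 of the 21 passed by edgeR or voom, 9 were lower at an unadjusted p under 0.05, and DESeq2 called 4 lower. Of 14 conjugate exporters and uptake carriers, 3 were higher and 0 lower in HFD control than in lean livers by edgeR. They were Abcg2 and, already counted among the CAR and PXR targets, Abcb1a and Abcc3. DESeq2 called 4 higher and 1 lower there. In NM-FGF19 against HFD control livers 0 passed by edgeR, DESeq2 or voom, with 1 higher and 3 lower at an unadjusted p under 0.05.

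Enzymes that undo or parallel these reactions gave the calls below, where 5.04% of all genes were higher and 3.29% lower in HFD control against lean livers. Of 10 tested deconjugation genes, 2 were higher in HFD control than in lean livers, led by Sulf2, an extracellular sulfatase of heparan sulfate, at 2.07 ± 0.32 on the log2 scale (edgeR adjusted p = 0.00516). Of 21 other conjugating enzymes, 1 was higher and 2 were lower in HFD control than in lean livers, where Nat8, an acetyltransferase that finishes mercapturic acids from glutathione conjugates, fell by 1.40 ± 0.25 (edgeR adjusted p = 0.00794). Nat8 also fell by 2.11 in NM-FGF19 against lean livers (edgeR adjusted p = 0.00324).

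Lists of liver sex bias and zonation were read beside the members, since several GSTs, UGTs and SULTs differ by sex or lobule position. Of 14 tested male-biased genes outside the families, 2 were lower in HFD control than in lean livers, with a median log2 change of -1.31. Of 14 tested female-biased genes, 1 was higher and 2 were lower, with a median of 1.11, and Vldlr, a lipoprotein receptor, rose by 4.63 ± 0.90 (edgeR adjusted p = 0.0132), a call that voom did not make. In that comparison DESeq2 called 5 male-biased genes lower and 0 higher, and 5 female-biased genes higher and 3 lower, while voom called 2 lower and 0 higher in each list. In NM-FGF19 against HFD control livers 0 genes of either list passed by edgeR or voom, with medians of 0.64 and 0.06. DESeq2 called 1 higher in each list there, and at an unadjusted p under 0.05 the male-biased list had 3 higher and 1 lower and the female-biased list 2 higher and 0 lower. Of 15 pericentral genes 1 was higher and 1 lower in HFD control than in lean livers, Aldh3a2 rising by 2.82 ± 0.38 (edgeR adjusted p = 0.00285), and of 14 periportal genes 1 passed, Cyp2f2, falling by 1.47 ± 0.32 (edgeR adjusted p = 0.0181). The part of any of these lists in the members' changes was not tested.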

How the data were processed

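RNA from liver sections of 12 mice was sequenced with a stranded mRNA kit as read pairs of 101 bases, per the labels' protocols. The authors deposited raw read counts per gene, made with Trimmomatic, STAR and featureCounts on mm39, per the submitters' processing notes. The sources used here do not state the versions, the annotation, the strand mode or what was done with reads that fit several genes. Columns were matched to samples by name, with 0 left over. Symbols were found for 52083 of 55359 Ensembl IDs, and IDs without one held 0.515% of counts.

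edgeR 4.0.16 in R 4.3.3 was run on the counts: genes were kept by filterByExpr with a minimum count of 10 (15274 genes), scaled by TMM, and tested with the robust quasi-likelihood F test, 2-sided, in a fit of all 12 libraries with group as the only term. Benjamini-Hochberg adjustment ran over all genes tested in a comparison, with a threshold of 0.05. SEs of log2 changes were derived from the F statistics. The interval of a ratio against few counts is exact for 2 Poisson counts at 95%, with each count taken as a separate read pair. Pairwise correlations of log2 CPM (prior count of 2) between replicates were 0.946 to 0.980. Alternatives were DESeq2 1.42.0, voom of limma 3.58.1, other scalings, filters and fits, each library left out, lean 3 and HFD control 3 left out, and copies of at least 95% protein identity summed. The scripts were tested on simulated data.

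The members and lists were chosen with earlier results of these data known. Members named with values are called members of at least 1 CPM, the highest member of each family, and 21 fixed genes, and others are said to be named after their values were seen. Promoters came from RefSeq on GRCm38.p6 and transcripts from GENCODE M21, which are not the build of the counts, so gene coordinates are given for promoters only.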

Additional observations from a re-analysis of the deposited data

Results flagged for a closer look

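Gsta1 in the library lean 4 had 0.0874 CPM, while the other 3 lean libraries were at 0 CPM. It was picked out because its gap to the other libraries makes up the whole range of the group, above Dixon's critical value for 4 samples. The 4 lean libraries together held 2 counts of Gsta1, so the gap is of a few reads. This was 1 of 84 groups examined, and chance alone would pick out about 5% of groups.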

How the results depend on the processing

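The number of members past the threshold in HFD control against lean livers was 5, and it was 11 with DESeq2 (4 higher and 7 lower), 3 with voom, 11 with library totals alone (9 higher and 2 lower), 3 with no filter on low counts, 3 without lean 3 and HFD control 3, and 3 with near-identical copies summed. In NM-FGF19 against HFD control livers it was 2, and 1 with voom, 1 with library totals alone and 1 with no filter. In NM-FGF19 against lean livers it was 0, and 5 with DESeq2, 1 with no filter, 1 in a fit of the 2 groups compared and 1 without lean 3 and HFD control 3. Leaving out each library in turn gave 2 to 10 members, 0 to 2 members and 0 to 1 members in these comparisons. The cause of these shifts was not tested. With copies summed, Ugt2b38 in HFD control against lean livers turned to 0.0961 on the log2 scale, since the sum is led by Ugt2b5.

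Replicate numbers did not pair the mice: same-numbered libraries of different groups had correlations of -0.363 to 0.0712 in their deviations from the group means. With the replicate number as a block, 3 members passed in HFD control against lean livers, where Sult1c2 (adjusted p = 0.0898 by edgeR) and Ugt2b38 (0.127) missed the threshold, and 0 passed in NM-FGF19 against HFD control livers, where Gsta2 (adjusted p = 0.0895 by edgeR) and Gstm7 (0.0512) missed the threshold and the count over all genes was 18 in place of 66, and 0 in NM-FGF19 against lean livers.

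Of 160 alternatives of called members, 114 kept the call, 45 lost it and 1 reversed. Of 1768 alternatives of values that had not passed, 1750 still did not pass, 137 of them with the other sign, and 18 passed. Depth limits the members near the floor, above all Gsta1, and with 4 mice per group a change within the SEs given was not detectable. Some changes of more than 2 SEs did not pass either. Gsto1 in NM-FGF19 against HFD control livers was one, at -0.54 ± 0.19 (edgeR adjusted p = 0.365).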
